A study of Mus musculus with 2 samples.

Results

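The distal miRNA cluster of the imprinted Dlk1-Dio3 region, from Mir379 to Mir3072 on mouse chromosome 12, was examined in the stomach of newborn mice. Its members were chosen by position alone, as the rows of the count tables whose gene lies, on either strand, within a window of 50 kb on chromosome 12 (GRCm38, GENCODE M21) that opens 9.06 kb before Mir379. There were 38 such genes among 1973 in the tables, 34 on the plus strand and 4 on the minus strand. They span 38901 bp, and the median gap between neighbouring hairpins was 590 bp. The series holds 2 small RNA libraries (below 30 nucleotides), each from the whole stomach of a different pup of 1 dam, strain B6NCrl, at postnatal day 0, untreated as far as the labels say, with sex not collected. They form a single group, so the data describe levels and the spread between 2 littermates, and p-values compare these libraries only.

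The Dlk1-Dio3 region is expressed from 1 parental chromosome for each of its genes. The protein-coding genes Dlk1, Rtl1 and Dio3 are read from the paternal copy, while the noncoding RNAs Meg3, Rian and Mirg and the miRNAs along them are read from the maternal copy. The distal miRNAs are known as a large array of related hairpins that arose by tandem duplication, are cut from long shared transcripts, and are active in embryonic tissues, brain and placenta. A miRNA hairpin gives a 5p and a 3p arm of about the same length, and bases 2 to 8 of an arm, the seed, guide it to its targets.

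The mature arms of the 8 members with the most reads are shown because they carry most of the cluster's counts. Each is printed 5′ to 3′ with its seed in capitals. RefSeq (GRCm38.p6) held mature sequences for 34 of the 38 rows and for 37 of the 38 positions once the plus-strand gene at each minus-strand row was used. The tables count reads per gene, so they do not tell which arm a read came from.
miR-411-5p: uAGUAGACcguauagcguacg
miR-411-3p: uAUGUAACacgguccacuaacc
miR-379-5p: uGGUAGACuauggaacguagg
miR-379-3p: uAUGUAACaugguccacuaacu
miR-487b-5p: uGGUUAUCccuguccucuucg
miR-541-5p: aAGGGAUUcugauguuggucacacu
miR-541-3p: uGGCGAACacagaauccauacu
miR-369-5p: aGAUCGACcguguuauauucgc
miR-369-3p: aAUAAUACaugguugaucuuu
miR-381-5p: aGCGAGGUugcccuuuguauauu
miR-381-3p: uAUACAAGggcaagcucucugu
miR-382-5p: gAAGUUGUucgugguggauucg
miR-382-3p: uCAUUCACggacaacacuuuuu
miR-154-5p: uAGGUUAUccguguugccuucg
miR-154-3p: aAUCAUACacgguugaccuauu

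The 69 arms that the RefSeq table lists for the cluster carried 64 different seeds, and 5 seeds occurred in a pair of genes each. For Mir487b, Mir376c, Mir453, Mir539 and Mir485 a single arm is listed, so seed comparisons cover the listed arms only. Mir379 and Mir411, the first hairpins of the array and its most abundant genes, share the seed of their 3p arms, while their 5p seeds differ at 1 of 7 bases. The whole hairpins show this likeness, with the mature arms in capitals. That of Mir379 lies at chr12:109709060-109709125 and that of Mir411 at chr12:109710175-109710256, both on the plus strand and outside any annotated host gene on that strand.
Mir379: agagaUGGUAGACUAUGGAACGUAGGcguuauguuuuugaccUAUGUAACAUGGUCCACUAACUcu
Mir411: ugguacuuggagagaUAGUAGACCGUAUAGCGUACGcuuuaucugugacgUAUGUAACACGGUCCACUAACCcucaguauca

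Mir379 shares its 5p seed with Mir1193, and Mir494 shares a 5p seed with Mir410. These arms are shown beside the pairs above because the genes of each pair differ in level.
miR-1193-5p: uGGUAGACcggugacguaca
miR-494-5p: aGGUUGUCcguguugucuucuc
miR-410-5p: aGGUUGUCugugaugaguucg
The remaining shared seeds joined Mir1197 to Mir758 and Mir453 to Mir496a. Another 36 pairs of arms of the same side differed at 1 seed base, among them the 3p arms of Mir300 and Mir381. Among listed arms, which for Mir487b means miR-487b-5p, no detected gene outside the cluster shared a seed with any of the 8 highest members. Chosen after their values were seen, 4 genes outside the cluster share a seed with a lower member, with levels as mean and SD over n = 2. Mir362 (80.4 ± 15.2 counts per 1000000 own-strand counts) shares its seed with miR-329-3p and Mir370 (144 ± 5.13) with miR-1193-3p. Mir672 (27.2 ± 9.37) shares its seed with miR-377-5p and Mir1983 (434 ± 50.1) with miR-412-3p. Mir370 lies in the same imprinted region, in an intron of Rian.

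Levels are given as own-strand counts per 1000000 own-strand counts of the library (CPM). They are not divided by length, since each read is a short RNA and the arms measure 19 to 25 nt. Library preparation can favour some miRNAs over others, so a ratio of counts between miRNAs is not a ratio of molecules. Own-strand counts totalled 4463355 in pup 1 and 3454655 in pup 2, and a count of 0 allows up to 0.672 CPM in pup 1 and 0.868 CPM in pup 2 (3 counts). These limits and all intervals cover counting error only, since the reads carry no molecular identifiers. Markers of stomach tissue were present: smooth muscle genes held 24.8% ± 1.21 (SD, n = 2) of the counts, squamous forestomach genes 11.2% ± 0.330, the miR-200 genes of epithelium 6.36% ± 0.346 and the glandular genes 0.792% ± 0.0330. Of the neuronal markers, 3 of 8 analysed were detected and the list held 0.130% ± 0.0172, most of it from Mir137 (1220 CPM). The 3 Mir124a genes and Mir9-2 stood at 0. These belong to sets of gene copies with the same mature miRNA, and reads that mapped to several places stayed out of the gene counts, so a count of 0 there does not show that the miRNA was absent.

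The cluster held 2.73% ± 0.112 of own-strand counts, from 125607 reads in pup 1 and 91736 in pup 2. Pup 1 gave 2.81%, with an exact 95% interval of 2.80% to 2.83%, and pup 2 gave 2.66%, with one of 2.64% to 2.67%. In whole tissue, fewer cells that express a gene and less RNA per cell cannot be told apart. Of the 38 members, 29 (76.3%) were detected, with at least 10 own-strand counts in each library. All 29 lay on the plus strand, where they made up 85.3% of 34 genes. Across all 1973 genes, 15.5% were detected. The median detected member stood at 179 CPM, beside 166 CPM for all 305 detected genes, and 15 of the 29 lay above that table median. So the members were detected more often than the table as a whole, while the level of a typical detected member was near that of a typical detected gene.

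**Figure D1:**
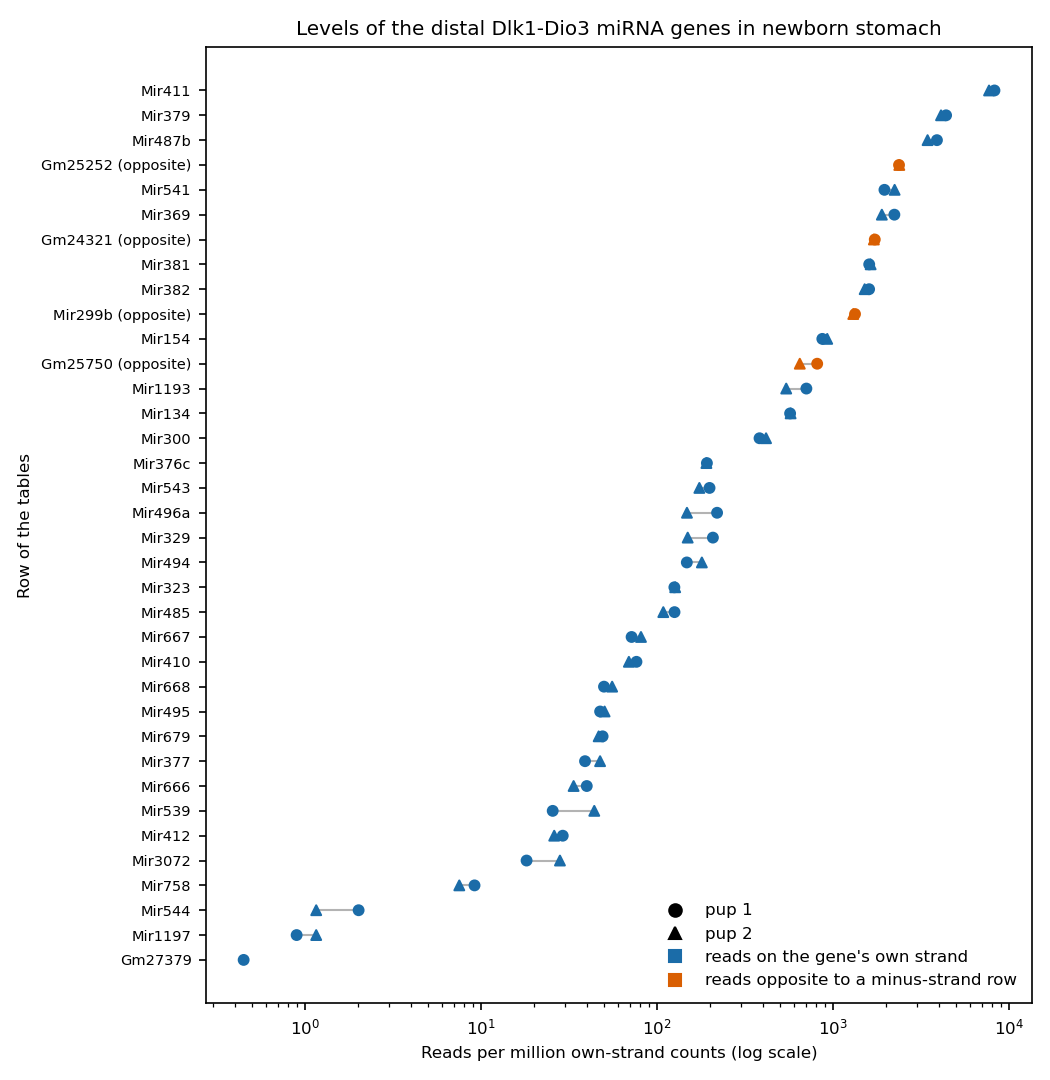
Reads per 1000000 own-strand counts (log axis) of the 36 rows with at least 1 read, ordered by mean, with circles for pup 1 and triangles for pup 2. Blue points are reads on the gene's own strand and orange points are reads opposite to a minus-strand row, and Mir411 leads at 8261 and 7697 CPM while Gm27379 has a point for pup 1 only.

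Counts within the cluster were held by few genes. The 7 members at or above 1000 CPM held 84.9% ± 0.165 of the cluster's reads, the 11 between 100 and 1000 CPM held 13.3% ± 0.00904, and the rest held 1.75% ± 0.156. Mir411 alone held 29.2% ± 0.262, the highest 5 members 73.3% ± 0.487 and the highest 10 members 92.6% ± 0.116. Between the highest and the lowest detected member the ratio was 959-fold, or 9.91 ± 0.131 on the log2 scale. The plot of levels by rank shows this range on a log axis.

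Mir411 (ENSMUSG00000065477) had 36872 counts in pup 1 and 26589 in pup 2, a level of 7979 ± 399 CPM that ranked 23 among all genes. Mir379 (ENSMUSG00000065498), which lies next to it and gives the cluster its name, had 19584 and 14187 counts, or 4247 ± 199 CPM. Mir411 exceeded Mir379 by 0.91 ± 0.0047 on the log2 scale, nearly the same ratio in each pup (0.91 in both).

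Mir487b (ENSMUSG00000076219) followed with 17373 and 11897 counts, or 3668 ± 317 CPM. It lay below Mir379 by a log2 ratio of 0.21 ± 0.057, again beyond the spread between pups. Mir541 (ENSMUSG00000076052) had 8744 and 7731 counts, or 2098 ± 197 CPM, and Mir369 (ENSMUSG00000065561) had 9955 and 6541, or 2062 ± 238 CPM. These neighbours changed places between the pups: Mir369 was higher in pup 1 and Mir541 in pup 2 (0.027 ± 0.30 on the log2 scale for Mir541 over Mir369).

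Mir381 (7163 and 5649 counts, 1620 ± 21.5 CPM) and Mir382 (7153 and 5224 counts, 1557 ± 64.0 CPM) did not differ beyond their spread (0.057 ± 0.078 on the log2 scale). Mir154, whose name is often given to the related hairpins of the array, had 3879 and 3201 counts, or 898 ± 40.7 CPM, and lay below Mir382 by 0.79 ± 0.12. Mir1193 had 3149 and 1872 counts, or 624 ± 116 CPM. Mir134, known in neurons as a regulator of dendritic spines, had 2545 and 1983 counts, or 572 ± 2.69 CPM, and did not differ from Mir1193 beyond the spread.

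Over the 29 detected members in order of level, 13 of 28 neighbouring pairs differed by more than the SD of their log2 ratio over the pups, and 15 did not. In 14 pairs the pups gave opposite orders. Neighbours did not differ beyond their spread, and changed places between the pups, from Mir376c through Mir543, Mir496a and Mir329 to Mir494 (191 ± 0.885 down to 164 ± 22.7 CPM). The same held for the longer run from Mir495 through Mir679, Mir377, Mir666, Mir539 and Mir412 to Mir3072 (48.9 ± 2.03 down to 23.1 ± 7.02 CPM). With 2 libraries no exact permutation test of these ratios can give a p under 0.5, so they are set against the SD only. That SD rests on 2 values, and the pairs were ordered by the same levels. The counts of pairs therefore do not separate true differences from none.

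Mir300 had 1706 and 1438 counts (399 ± 24.1 CPM) and exceeded Mir376c 2.08-fold, the widest step between neighbours above the lowest pair. Below Mir494 lay Mir323 at 126 ± 0.933 CPM and Mir485 at 117 ± 12.1 CPM. Mir667, Mir668, Mir495, Mir679, Mir377 and Mir666 ran from 76.4 ± 6.62 down to 36.7 ± 4.46 CPM.

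The lowest detected members were Mir412, Mir3072 and Mir758. Mir412 had 130 and 90 counts (27.6 ± 2.17 CPM) and Mir3072 had 81 and 97 (23.1 ± 7.02 CPM). Mir758 had 41 and 26 counts (8.36 ± 1.17 CPM), and Mir3072 exceeded it 2.71-fold (1.44 ± 0.65 on the log2 scale). Below the detection minimum lay Mir544 with 9 and 4 counts, Mir1197 with 4 in each pup and Gm27379 with 2 in pup 1 and 0 in pup 2. Mir654 and Mir453 had 0 counts in both pups. These 5 and the 4 minus-strand rows are the 9 members not detected on their own strand.

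Genes that share a seed differed in level. Mir379 stood at 4247 ± 199 CPM and its 5p seed partner Mir1193 at 624 ± 116 CPM. Mir494 had 659 and 621 counts (164 ± 22.7 CPM), and Mir410, which closes the array of related hairpins, had 341 and 239 (72.8 ± 5.10 CPM). The levels of each pair did not overlap between the pups. Adjacent positions on the chromosome differed by a median of 5.42-fold, so a difference in level is not particular to pairs that share a seed.

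**Figure D2:**
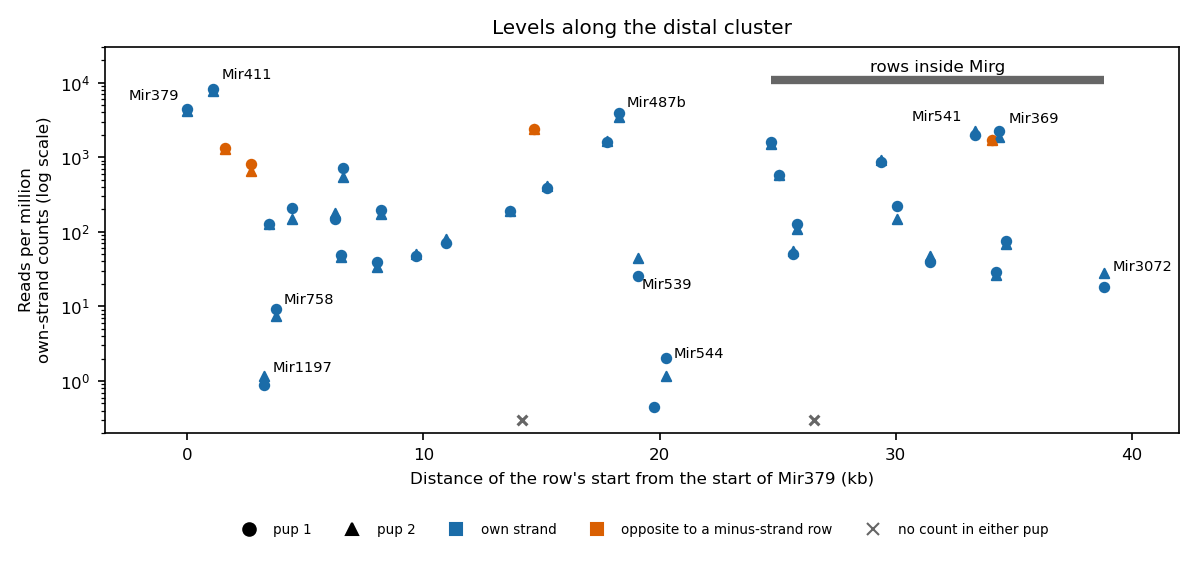
Reads per 1000000 own-strand counts (log axis) against the distance of each row's start from the start of Mir379 in kb, with circles for pup 1, triangles for pup 2, orange for reads opposite to a minus-strand row and crosses for rows without counts. High and low rows alternate along the array, from Mir411 near the left end at 7979 CPM to Mir3072 at the right end at 23.1 CPM, and the grey bar spans the rows that lie inside Mirg.

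Position along the array did not order the levels. Over the 34 plus-strand members, level and distance from Mir379 had a Spearman rho of -0.085, given as a description because these genes share their transcripts and libraries. Mirg, the long noncoding RNA annotated at chr12:109729764-109749460 on the plus strand, encloses 13 members, 9 overlapping an exon and 4 in introns, while 21 plus-strand members lie upstream of it with no annotated host. The members inside Mirg held 28.2% ± 0.738 of the cluster's reads. Of these 13, 12 were detected, at a median of 150 CPM, and of the 21 upstream 17 were detected, at a median of 179 CPM.

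Close neighbours on the chromosome often differed widely. Between 32 pairs of adjacent positions with at least 10 reads in each library, the median ratio was 5.42-fold, with 27 pairs over 2-fold and 12 over 10-fold. The widest step was from Mir487b to Mir539, which begins 714 bp further on and was 109-fold lower (6.77 ± 0.68 on the log2 scale). Mir369 exceeded Mir412, which ends 49 bp before it, 74.6-fold (6.22 ± 0.053), and exceeded Mir410, 218 bp after it, 28.3-fold (4.82 ± 0.066). Mir379 with Mir411, at 1.88-fold, was among the 5 pairs within 2-fold.

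The 4 minus-strand rows had almost no reads of their own and many on the other strand. Mir299b had 6 and 4 own-strand counts, while Gm25750, Gm25252 and Gm24321 had none in either pup. The plus-strand genes annotated at these positions, Mir299a, Mir380, Mir376a and Mir409, have no row of their own in the tables used here, so their reads are seen as counts on the strand opposite to the minus-strand row. Their mature arms are shown because these reads are not among the cluster's own-strand counts.
miR-376a-5p: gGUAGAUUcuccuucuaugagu
miR-376a-3p: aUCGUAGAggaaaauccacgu
miR-409-5p: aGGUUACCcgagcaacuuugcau
miR-409-3p: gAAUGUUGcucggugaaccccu
miR-299a-5p: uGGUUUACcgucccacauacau
miR-299a-3p: uAUGUGGGacgguaaaccgcuu
miR-380-5p: aUGGUUGAccauagaacaugcg
miR-380-3p: uAUGUAGUaugguccacaucuu

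Opposite to Gm25252 (chr12:109723756-109723875), where Mir376a lies, there were 10579 reads in pup 1 and 8219 in pup 2, or 2375 ± 6.31 per 1000000 own-strand counts. The miR-376 genes are known for A-to-I editing of their transcripts in brain. Opposite to Gm24321, at Mir409, there were 7704 and 5893 reads, or 1716 ± 14.3 on that scale. Opposite to Mir299b, at Mir299a, there were 5949 and 4501, or 1318 ± 21.2. Opposite to Gm25750, at Mir380, there were 3627 and 2236, or 730 ± 117. By these reads the positions ranked 4, 7, 10 and 12 among the 38. None of the 34 plus-strand members had a read on its opposite strand. Among all 1973 genes 13 had at least 10 opposite-strand reads in each library, and these 4 held 27.2% ± 0.288 of all such reads.

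With these reads credited to the cluster, it held 3.27% ± 0.122 of the counts of both strands, and 18.3% ± 0.258 of its reads came from the 4 positions. The number of positions with at least 10 reads in each library rose from 29 to 33, and the share held by the highest 5 fell to 60.8%.

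Related sequence bears on how these reads were counted, since reads that mapped to several places (26.0% in pup 1, 25.7% in pup 2) stayed out of the gene counts. No mature arm of the cluster occurred whole in another annotated hairpin of the tables. An identical run of 20 nt or more, also found in another, non-overlapping hairpin, was present in 4 members. Mir411 and Mir758 share gguccacuaacccucaguauc, which covers 12 nt of miR-411-3p, 9 nt of miR-758-3p and 0 nt of either 5p arm. Mir487b shares 20 nt with Mir376b at the 3′ end of its hairpin, which covers 0 nt of miR-487b-5p, the only arm compared. Mir376c (857 and 659 counts, 191 ± 0.885 CPM) shares 31 nt with Mir376b, including 18 of the 22 nt of miR-376c-5p. Mir376b has no row in the tables used here. Without these 4 genes, and without the other genes of the tables that share such a stretch, the cluster held 1.69% of the remaining counts, since Mir411 and Mir487b are among those left out.

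Short stretches recurred across the hairpins, read on the transcribed strand only. The 8 letters CGCUUUAU were among those found in most hairpins and occurred in those of Mir411, Mir1197, Mir543, Mir154, Mir377 and Mir410, which is 6 of 38 positions (15.8%), against 0 of the 1856 other hairpins. GGUUGACC occurred in those of Mir380, Mir1197, Mir758, Mir134 and Mir154, 5 of 38 (13.2%), against 0 of 1856. Both motifs were chosen as common ones after the sequences were searched, so the counts describe the family and test nothing, and they do not follow level: Mir411 and Mir1197 hold the first at 7979 ± 399 and 1.03 ± 0.185 CPM. The most alike pair of hairpins was Mir411 and Mir758, identical at 73.8% of aligned positions, and the median over 703 pairs was 49.5%. The median GC content of member hairpins was 45.3%, beside 51.0% over all 1894 annotated hairpins of the tables and 55.4% in the proximal genes of the region. It ran from 29.1% in Mir376c to 72.3% in Mir3072. The folding energy of the median member hairpin, predicted with RNAfold, was -0.411 kcal/mol per nt, beside -0.379 over all of them and -0.436 in the proximal genes. Among detected genes the order turned, with -0.418 for the members and -0.435 for all 305.

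The cluster held more reads than the proximal miRNA genes of the same imprinted region, which lie around Meg3 and the Rtl1 gene. The 20 proximal rows held 1.25% ± 0.0497 of the counts, 14 of them detected, led by Mir127 (6323 ± 4.12 CPM), which is antisense to Rtl1, then Mir431 (2176 ± 314 CPM), Mir434 (1321 ± 147 CPM) and Mir337 (826 ± 1.81 CPM). Summed counts of the distal cluster exceeded those of the proximal genes 2.18-fold, by 1.13 on the log2 scale in pup 1 and 1.12 in pup 2 (mean 1.13 ± 0.0019). The distal cluster made up 68.6% ± 0.029 of the region's reads, so the division between the parts was nearly the same in both pups. Without genes that share a stretch with another hairpin the log2 ratio was 0.31. With opposite-strand reads credited to the cluster it was 1.42.

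The pups were compared gene by gene over all 305 detected genes with a two-sided exact binomial test against TMM library sizes, with Benjamini-Hochberg adjustment, and calls needed an adjusted p below 0.05 together with a difference of 1.5-fold or more. This called 2 of 29 detected members (6.90%), 1 in each direction, beside 2.95% of all detected genes (0.656% higher in pup 1 and 2.3% higher in pup 2). Mir496a, inside an intron of Mirg, was higher in pup 1. Mir539 was higher in pup 2. The other 27 lay within 1.5-fold, as the plot of member ratios shows.

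**Figure D3:**
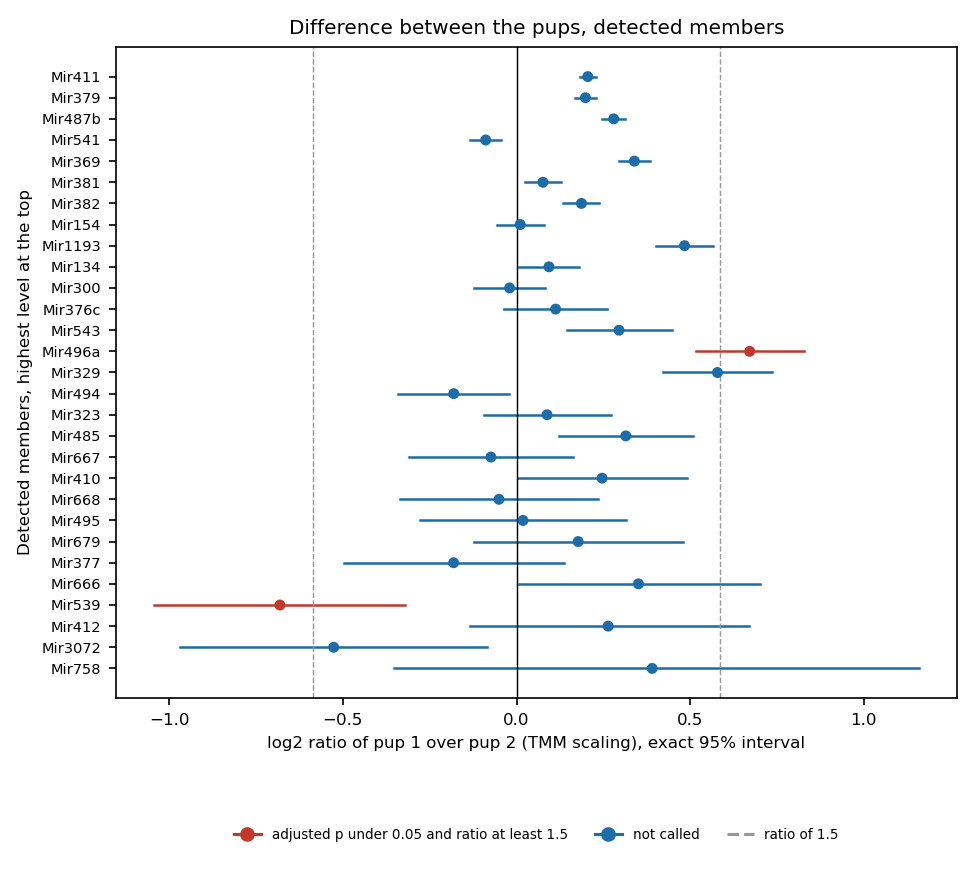
The log2 ratio of pup 1 over pup 2 (TMM scaling) for the 29 detected members, ordered by level with the highest at the top, with exact 95% intervals for counting error and dashed lines at a ratio of 1.5. Red marks Mir496a at 0.67 and Mir539 at -0.68, the called members, and most other points lie to the right of 0.

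Mir496a had 979 counts in pup 1 and 511 in pup 2, or 219 and 148 CPM. On the log2 scale pup 1 exceeded pup 2 by 0.67, with a 95% interval of 0.52 to 0.83 (adjusted p = 2.8e-17, exact binomial test). Scaled by total counts the ratio was 0.57 and the call ended.

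Mir539 had 114 and 152 counts, or 25.5 and 44.0 CPM, with a log2 ratio of -0.68 (-1.04 to -0.32; adjusted p = 0.00040, exact binomial test). The next largest ratio toward pup 1 was that of Mir329, a gene known to respond to neuronal activity, with 927 and 516 counts and a log2 ratio of 0.58 (0.42 to 0.74), just under the minimum ratio. Toward pup 2 it was that of Mir3072, with 81 and 97 counts and a log2 ratio of -0.53 (-0.97 to -0.086). Mir3072 was called when scaled by total counts (-0.63), and Mir329 with DESeq2 size factors or with no count filter. The binomial test takes no account of variation between animals. The common dispersion that edgeR estimated was a coefficient of variation of 11.4% between the libraries. Under it, 0 members and 1 gene in all (0.328%) passed an adjusted p of 0.05 in edgeR's exact test. An unadjusted p under 0.05 was given to 4 of the 29 detected members, beside 16 of all 305 detected genes. That dispersion was estimated from the same 2 libraries taken as 1 group, so the pup differences under test also set it. Few calls follow from this setting, and they do not measure variation between animals.

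By value, members leaned toward pup 1. Of the 29, 21 had a ratio above 0 (72.4%), beside 47.5% of all detected genes, and their median log2 ratio was 0.18, beside -0.024 for all. Scaled by total counts, which moves the median of all genes to -0.13, 16 of 29 were above 0 and the median was 0.074. The sign turned for 5 members: Mir381 (0.076 to -0.027), Mir134 (0.093 to -0.0096), Mir323 (0.088 to -0.015), Mir495 (0.018 to -0.085) and Mir154 (0.011 to -0.092). The most abundant members took part: Mir411 (0.21), Mir379 (0.20), Mir487b (0.28) and Mir369 (0.34) were higher in pup 1, while Mir541 (-0.089) was lower, each with an adjusted p under the threshold in the binomial test and a ratio under 1.5. With no minimum ratio, 11 members, Mir381 among them, passed toward pup 1 and 3 toward pup 2, where 52.1% of all detected genes passed.

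The 4 opposite-strand positions had log2 ratios of 0.12 at Mir299a, 0.42 at Mir380, 0.085 at Mir376a and 0.11 at Mir409, computed from counts of both strands, all above 0 and none called. In that comparison 3.49% of 315 genes were called. The summed reads of the cluster gave a log2 ratio of 0.19 and those of the proximal genes 0.18. Proximal genes were above 0 in 10 of 14 cases, with a median of 0.093 and 0 called. Smooth muscle markers stood at 25.6% of counts in pup 1 and 23.9% in pup 2, endothelial markers at 3.56% and 3.44%, glandular markers at 0.816% and 0.769% and the gut endocrine marker at 0.768% and 0.715%, all higher in pup 1 as sums. By share of counts, the miR-200 genes of epithelium, at 6.11% and 6.60%, and the squamous markers, at 10.98% and 11.45%, were higher in pup 2. These shares are scaled by total counts, unlike the TMM ratios of the cluster and the proximal genes. Total scaling lowers each ratio of pup 1 over pup 2, as for Mir379 (0.20 by TMM, 0.096 by total counts). The direction of a small difference between sums therefore depends on the scaling. Genes within these lists did not all have the same sign by TMM ratio, which is not the scale of the sums. By TMM log2 ratio the glandular genes Mir215 (0.37) and Mir192 (0.20) lay above 0, while Mir194-2 (-0.37) and Mir194-1 (-0.21) lay below. Mir143 stood at 0.21 and Mir145a at 0.024. Mir429 (0.12) lay above 0, unlike the other miR-200 genes, and squamous Mir203 (0.078) above but Mir205 (-0.16) below. The signs of Mir203 and Mir145a depend on the scaling, so they cannot be read against the sums. Mesenchymal markers stood at 0.528% and 0.527%, neuronal markers, mostly Mir137, at 0.118% and 0.142% and skeletal and heart muscle markers at 0.0181% and 0.0371%. In the last list Mir206 had a TMM log2 ratio of -1.34, beside -0.18 for Mir133b and -0.21 for Mir208b. The part of these markers in the lean toward pup 1 was not tested.

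**Figure D4:**
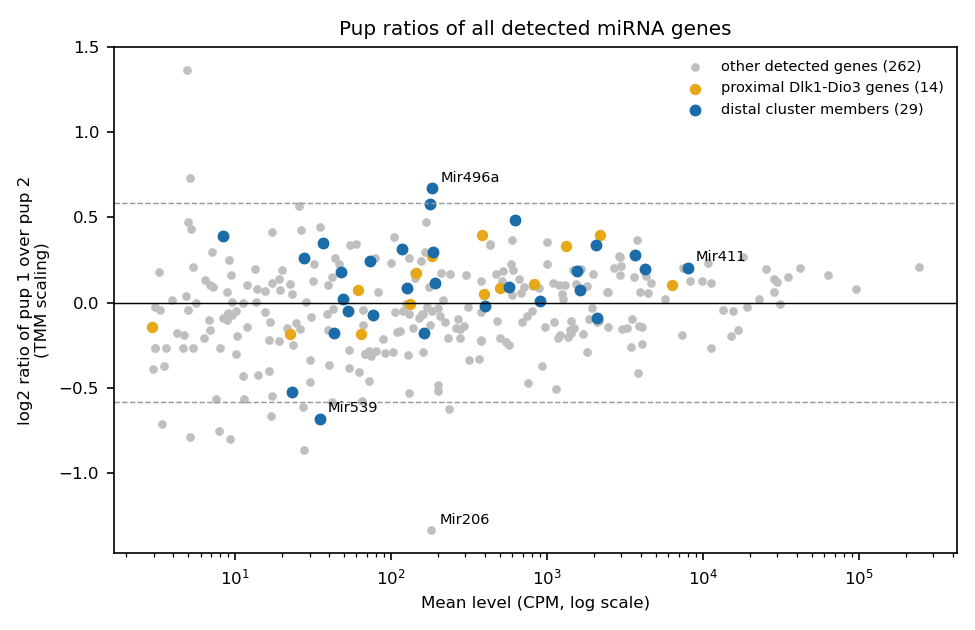
The log2 ratio of pup 1 over pup 2 (TMM scaling) against mean level (CPM, log axis) for all 305 detected genes, with the 29 distal members in blue, 14 proximal genes in yellow and 262 other genes in grey. Dashed lines mark a ratio of 1.5, and 21 of the 29 blue points lie above 0.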

How the data were processed

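For each library the authors deposited raw counts of reads per gene, without regard to strand and for each strand, on assembly mm10 and annotation M4, per the file headers in the accompanying description files. For aligner and counting tool, nothing is given in the sources used here. Rows naming no gene (36.5% and 36.3% of reads) stayed out of totals and tests. The members and lists were chosen with earlier results of these data known.

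Identifiers were matched without version to GENCODE M21 (1894 of 1973). All 38 members matched, 25 with the same version. The strand column with the larger total, 97.7% and 97.8% of gene counts, was taken as the own strand. TMM sizes and the common dispersion came from edgeR 4.0.16 (R 4.3.3), alternative size factors from DESeq2 1.42.0. The quasi-likelihood test needs replicates on each side, so an exact binomial test was used (scipy 1.17.1). It was run on simulated counts with counting (Poisson) error alone, which cannot show how it behaves with variation between animals. Python 3.11.15, numpy 2.4.6, pandas 2.3.3, matplotlib 3.10.9, Biopython 1.88 (hairpin alignment) and RNAfold 2.7.2 served the rest. Sequences came from RefSeq (GRCm38.p6) and M21 transcripts.

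Named in full were the 10 highest and 3 lowest detected members, those called, the 2 largest ratios each way, minus-strand rows and members under the minimum with a count. Other members were named where a printed count or sequence pair concerned them. Alternatives changed scaling, count minimum, strand, denominator, sequence sharing and library.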

Additional observations from a re-analysis of the deposited data

Results flagged for a closer look

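Reads lay on the strand opposite to the row for 4 members, in counts that the own-strand levels do not use, above the 3 counts that a count of 0 allows in each library. They stood at 2375 reads per 1000000 own-strand counts opposite to Gm25252, 1716 opposite to Gm24321, 1318 opposite to Mir299b and 730 opposite to Gm25750. The annotated plus-strand genes at these positions are Mir376a, Mir409, Mir299a and Mir380. A single group of 2 libraries leaves no group large enough to look for outlying samples.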

How the results depend on the processing

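Scaled by total counts, the pup ratio turned from above to below 0 for 5 detected members that were not called, to -0.027 for Mir381, -0.0096 for Mir134, -0.015 for Mir323, -0.085 for Mir495 and -0.092 for Mir154. The reads opposite to Gm25252, at Mir376a, turned the same way. The cluster share of 2.73% became 3.27% with counts of both strands or with opposite-strand reads credited, 1.69% without sequence-sharing genes, 1.70% of all reads in the tables and 1.95% without Mir411, an alternative chosen after seeing the data. It ran from 2.66% to 2.81% when either pup was left out. The highest 5 members' share of 73.3% became 60.8% with counts of both strands and with opposite-strand reads credited, and 74.7% without sequence-sharing genes. The log2 ratio of distal over proximal genes, 1.13, became 1.42 with counts of both strands and with credited reads, 0.31 without sequence-sharing genes and 1.64 without Mir411 and Mir127. For the last 2 results crediting was also chosen after seeing the data, as was leaving out Mir411 and Mir127. Members detected stayed between 28 and 33. Members called, 2, became 0 with edgeR's common dispersion (0.328% of all detected genes), which was set by the pup differences under test. They became 14 with no minimum ratio, where 52.1% of all detected genes passed. Otherwise 2 or 3 were called, though total counts called Mir3072 and Mir539. With counts of both strands 3.49% of all genes were called. For the other alternatives that share is not given here, so their counts describe the members only. The median pup ratio ran from 0.074 to 0.21. With TMM library sizes the levels of the 10 highest members moved by less than 1 SD. Leaving out 1 of 2 libraries moves a mean by a fixed part of the SD, so it does not test those levels. No paired analysis was possible because the libraries form a single group. Depth limits Mir544, Mir1197 and Gm27379, whose counts of 0 to 9 give no usable ratio.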
